A study of Mus musculus with 10 samples.

Results

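Mouse embryonic stem cells that lack Dicer were set against cells that lack Drosha, 2 libraries against 2, out of the 10 small RNA libraries of a series with 5 genotypes. The libraries were chosen by their labelled genotype. All libraries are from the E14 line, a widely used mouse stem cell line of 129/Ola background from the blastocyst, grown in 15% serum with 100 U/mL LIF on 0.2% gelatine, with 1 µg of total RNA per small RNA library. The Dicer_KO group carries a Dicer knockout and the Drosha_KO group a Drosha knockout. WT E14 cells (2 libraries) are the common parent, given below where they help to read a level. The other 2 genotypes, labelled Dgcr8_KO and Ago12_KO, with 2 libraries each, and the WT libraries entered the filter and the fits. The 2 Dicer_KO libraries carry a code each (C1 and H11), and nothing in the labels says that the 2 Drosha_KO libraries came from separate cultures. The p-values thus measure the spread between libraries of a group, pooled over all 5 groups, which may be technical.

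Drosha and Dicer act one after the other in the same pathway. In the nucleus Drosha, with its partner Dgcr8, cuts a long primary transcript so that a short hairpin is released. In the cytoplasm Dicer cuts the loop off that hairpin, which leaves a duplex of a 5p and a 3p arm, and an Argonaute protein keeps 1 arm as the mature miRNA. Some hairpins reach Dicer by another road. Mirtrons are short introns whose ends are set by splicing, and a few hairpins begin at the capped start of a transcript and are made without Drosha. In mouse stem cells the miR-290 to miR-295 cluster, the miR-17-92 relatives and the miR-183, miR-96 and miR-182 cluster are among the most abundant miRNAs, and the miR-290 to miR-295 miRNAs help to drive the fast cell cycle of these cells.

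The 2 Dicer_KO libraries held 45222 and 37476 counts over the 1907 mature entries of the table, against 39511 and 40306 counts in the 2 Drosha_KO libraries. At these totals 1 count is 22.1 to 26.7 CPM, a count as a share of the column total scaled to 1000000 counts. The make-up of the counts differed between the groups, and 6 entries led in Dicer_KO cells, namely miR-3963, miR-6240, miR-5126, miR-6539, miR-5099 and miR-6236. Together they took 72.3% and 77.2% of the counts of the Dicer_KO libraries, against 9.80% and 9.88% in the Drosha_KO libraries and 0.749% and 0.608% in the WT libraries. Outside them 12525 and 8529 counts were left in the Dicer_KO libraries, against 35640 and 36325 in the Drosha_KO libraries. Every fold change given here is on shares of the column total. When the 6 entries were left out of the totals, a scaling chosen after seeing the data, the log2 fold changes of the other 259 tested entries counted in both groups moved up by 1.78 to 1.91. Fitted values of entries with no count in 1 group did not shift in this way, and none is printed for a single entry from the main fit. They still enter the medians and the calls. The value under this scaling is given below wherever it ends a call or turns a direction.

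**Figure D1:**
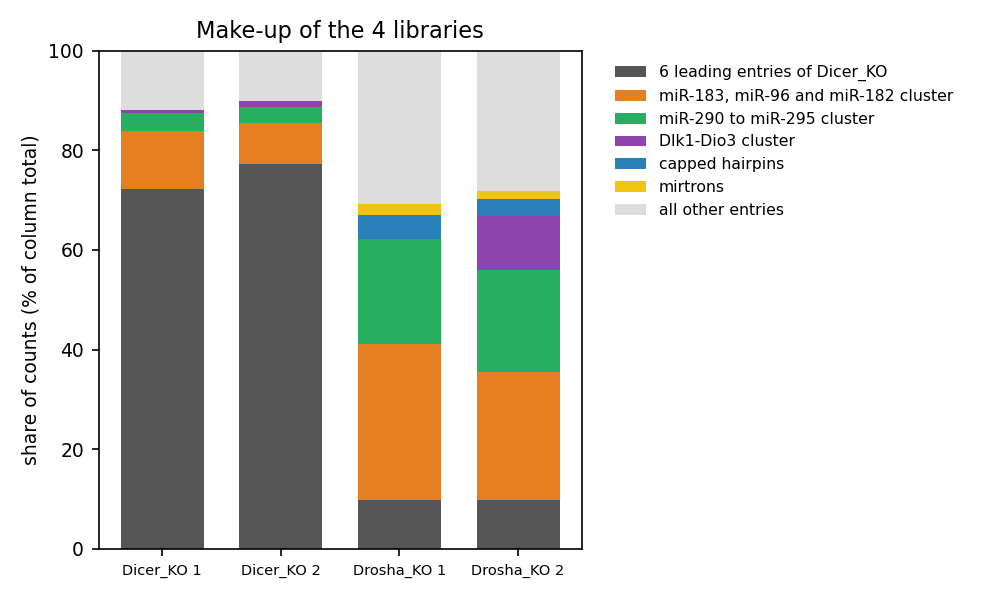
Share of the counts (percent of the column total, y axis) taken by the 6 leading entries, 3 miRNA clusters, capped hairpins, mirtrons and all other entries, 1 stacked bar per library, with Dicer_KO left of Drosha_KO. The 6 leading entries fill 72.3% and 77.2% of the Dicer_KO bars, against 9.80% and 9.88% of the Drosha_KO bars.

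The mature sequences of 4 of the leading entries are shown, since they carry most of the Dicer_KO counts. They are RefSeq records on GRCm38.p6, written 5′ to 3′ with bases 2 to 8, the seed that pairs with a target, in capitals.
miR-3963: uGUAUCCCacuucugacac
miR-6240: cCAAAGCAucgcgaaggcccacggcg
miR-5126: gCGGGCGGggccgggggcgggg
miR-6236: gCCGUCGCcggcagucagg

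MiR-3963 was the most abundant entry of the Dicer_KO cells, with 14612 and 9512 counts, against 883 and 503 counts in Drosha_KO cells. Its log2 fold change was 4.05 ± 0.36 (SE; edgeR quasi-likelihood test, adjusted p = 5.58e-06). The hairpin lies at chr3:151023792-151023862 on the minus strand, where the GENCODE M21 annotation has no other gene. MiR-6240, at chr5:114851948-114852064 on the plus strand with no other gene there, had 6645 and 7035 counts in Dicer_KO cells, against 86 and 122 in Drosha_KO cells (log2 fold change 6.01 ± 0.31, SE, with an edgeR adjusted p of 2.12e-07). MiR-6236 had 655 and 1028 counts in Dicer_KO cells and 48 and 70 in Drosha_KO cells. MiR-6240 and miR-6236 are entries that have been reported to match ribosomal RNA.

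MiR-6539 was counted 3843 and 3053 times in Dicer_KO cells, against 1276 and 960 times in Drosha_KO cells, and miR-5099 2996 and 2641 times in Dicer_KO cells, against 1228 and 1091 times in Drosha_KO cells. For both, every Dicer_KO library lay above every Drosha_KO library, with log2 fold changes of 1.57 ± 0.25 and 1.23 ± 0.26 (SE). MiR-5126 had 3946 and 5678 counts in Dicer_KO cells, against 350 and 1235 in Drosha_KO cells. The Drosha_KO pair was wide, and the call on miR-5126 (log2 fold change 2.60 ± 0.94, SE, with an edgeR adjusted p of 0.0428) was lost without Dicer_KO replicate 1 (adjusted p = 0.0893), without Dicer_KO replicate 2 (adjusted p = 0.197) and without Drosha_KO replicate 1 (adjusted p = 0.0973). Its hairpin, at chr1:84695839-84695915 on the plus strand, lies opposite an exon of Dner.

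Of 481 entries tested, 65 (13.5%) were called higher in Dicer_KO than in Drosha_KO cells and 146 (30.4%) lower, at an adjusted p under 0.05, and 211 (43.9%) in either direction. The median log2 fold change over all tested entries was -1.03, and -1.04 over the 265 entries counted in both groups. It was -0.07 with entries at 0 counts in 1 group placed at their bound, or at 0 where no bound was set. With the 6 leading entries out of the totals, 118 of the other 475 tested entries (24.8%) were called higher and 64 (13.5%) lower, with a median of 0. That median pools 31 entries with no count in any of the 4 libraries and entries with no count in 1 group. Entries counted in both groups moved up by a median of 1.82, so the median of 0 does not show that the groups are balanced. These shares over all entries, 13.5% higher and 30.4% lower on column totals and 24.8% and 13.5% without the leading entries, are the background for the counts of each list. Among those 475, 59 were called higher and 64 lower with either total, and 0 turned from a call in one direction to a call in the other. The 4 libraries separated by group in CPM in 65 of the 65 higher calls and in 142 of the 146 lower calls, and in 304 of all 481 tested entries. Among the higher calls, 26 entries had no count in either Drosha_KO library, and among the lower calls 61 had no count in either Dicer_KO library. For such an entry the fold is given as a bound, computed with 3 counts over the 2 libraries of the group at 0. The bounds are on column totals and cover counting error only. With the 6 leading entries out of the totals, the bounds of lower entries are smaller by about 1.82 in log2.

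**Figure D2:**
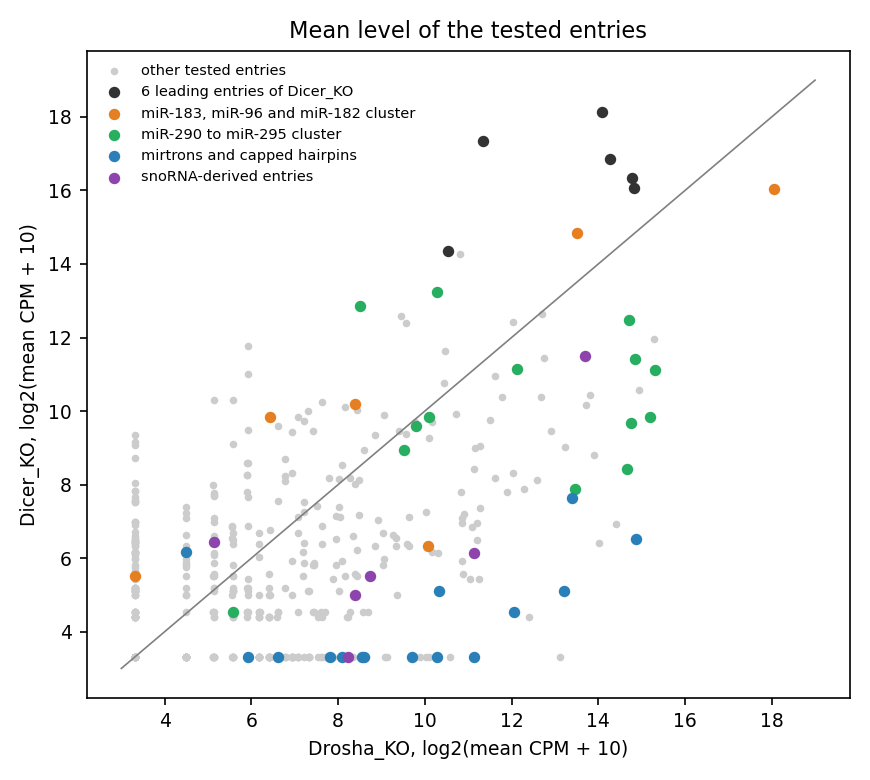
Mean level of each tested entry in Dicer_KO libraries (y axis, log2 of mean CPM + 10) against Drosha_KO libraries (x axis, same scale), 1 point per entry, coloured by list, with the line of equal levels. The 6 leading entries lie above the line and the mirtrons and most capped entries below it.

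The entries shown next, reported to arise without Drosha, had fewer counts in Dicer_KO than in Drosha_KO cells. Their sequences are shown because they come from unlike precursors. The first 4 are mirtrons, miR-484 has a capped hairpin, and miR-1983 has been reported to match a tRNA. Seeds are in capitals.
miR-877-5p: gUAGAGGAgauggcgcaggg
miR-1981-5p: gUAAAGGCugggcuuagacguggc
miR-702-3p: uGCCCACCcuuuaccccgcucc
miR-3102-3p: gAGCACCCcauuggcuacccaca
miR-484: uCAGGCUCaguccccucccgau
miR-1983: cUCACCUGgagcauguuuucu

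The mirtrons together had 2 and 3 counts in the Dicer_KO libraries, against 895 and 695 in the Drosha_KO libraries. That is 0.00621% ± 0.00253 of counts in Dicer_KO cells, against 1.99% ± 0.382 in Drosha_KO cells (SD, n = 2 each) and 0.0584% ± 0.00696 in WT cells. Of 10 mirtron entries tested, 0 were called higher and 9 lower, set against 30.4% of all tested entries called lower. Their median log2 fold change was -4.80 with the entries at 0 counts placed at their bound. The median of the fitted values was -9.30, which includes entries with no Dicer_KO count. With the 6 leading entries out of the totals, 8 of the 10 were still called lower, against 13.5% of the other entries. Of 16 mirtron entries, 3 had a count in Dicer_KO cells and 12 in Drosha_KO cells. An entry was tested where at least 1 group held it. The choice of tested entries can thus favour lower calls, and no direction is drawn from their number.

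MiR-877-5p, from an intron of Abcf1 at chr17:35960730-35960814 on the minus strand, had 1 and 1 counts in Dicer_KO cells, against 432 and 317 in Drosha_KO cells. Its share in Dicer_KO cells was 0.00258 of that in Drosha_KO cells, with a 95% interval of 0.000312 to 0.00934 that covers counting error only. The hairpin shows both arms in capitals, and the 5p arm begins at its first base.
miR-877 hairpin: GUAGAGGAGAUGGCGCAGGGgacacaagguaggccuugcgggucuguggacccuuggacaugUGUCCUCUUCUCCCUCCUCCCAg
The 3p arm of the same hairpin was not counted in Dicer_KO cells (0 and 0) and had 54 and 44 counts in Drosha_KO cells, so it was at least 33.9-fold lower. MiR-1981-5p, from an intron of Marc2 at chr1:184822407-184822488 on the minus strand, had 0 and 26.7 CPM in Dicer_KO cells, that is 0 and 1 counts, and 4885 and 3573 CPM in Drosha_KO cells. Its share in Dicer_KO cells was 0.00286 of that in Drosha_KO cells (95% counting interval 7.23e-05 to 0.0161). MiR-702-3p, which lies over an exon of Plod3 at chr5:136991433-136991541 on the plus strand, had 0 and 0 counts in Dicer_KO cells, against 87 and 92 in Drosha_KO cells, at least 61.8-fold lower. MiR-3102-3p had 0 and 0 counts in Dicer_KO cells, against 37 and 29 in Drosha_KO cells, at least 22.8-fold lower. For these 4 mirtrons the groups did not overlap, which also held for 304 of all 481 tested entries.

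The capped list had 12 and 15 counts in Dicer_KO cells, against 1913 and 1371 counts in Drosha_KO cells. Of its 5 tested entries 0 were called higher and 4 lower (all entries, 13.5% and 30.4%), and 1 and 4 with the 6 leading entries out of the totals (24.8% and 13.5%). Of the 22 entries on the list, 3 had a count in Dicer_KO cells and 9 in Drosha_KO cells. Here too the choice of tested entries can favour lower calls, and no direction is drawn from their number. MiR-484, whose hairpin at chr16:14159626-14159692 on the plus strand lies opposite an exon of Marf1, had 5 and 2 counts in Dicer_KO cells and 1327 and 1045 in Drosha_KO cells. Its log2 fold change was -8.47 ± 0.46 (SE, edgeR adjusted p = 2.19e-07), and -6.65 with the 6 leading entries out of the totals. MiR-320-3p was counted 5 and 10 times in Dicer_KO cells, against 559 and 293 times in Drosha_KO cells (log2 fold change -5.86 ± 0.52, SE, with an edgeR adjusted p of 5.58e-06). MiR-344-3p had 0 and 0 counts in Dicer_KO cells and 14 and 16 in Drosha_KO cells. The capped list took 0.0333% ± 0.00954 of Dicer_KO counts, 4.12% ± 1.02 of Drosha_KO counts and 0.147% ± 0.0158 of WT counts (SD, n = 2 each).

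**Figure D3:**
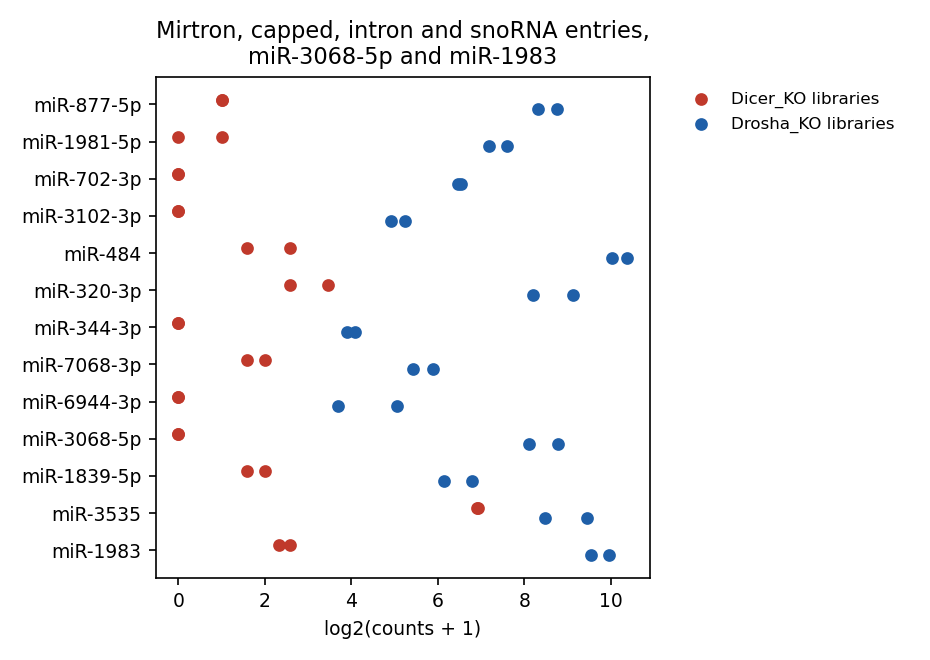
Counts per library (x axis, log2 of counts + 1) of 13 entries named in the text (y axis), 1 point per library, with Dicer_KO above Drosha_KO for each entry. In each row the Dicer_KO points lie left of the Drosha_KO points, and miR-484 had 5 and 2 counts in Dicer_KO cells, against 1327 and 1045 in Drosha_KO cells.

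The short intron entries numbered miR-6896 to miR-7094, were annotated from introns in large sequencing surveys. Of 403 such entries 22 had a count in Dicer_KO cells and 120 in Drosha_KO cells, against 433 and 532 over all entries. Of the 32 tested, 0 were called higher and 16 lower, against 13.5% and 30.4% of all entries. An entry was tested where at least 1 group held it, and the list had 43 and 22 counts in Dicer_KO cells, against 265 and 247 in Drosha_KO cells. The choice of tested entries can thus favour lower calls, and no direction is drawn from their number. With the 6 leading entries out of the totals, 3 were called higher and 4 lower, and the share called lower was then near the 13.5% of all entries. MiR-7068-3p had 3 and 2 counts in Dicer_KO cells and 42 and 58 in Drosha_KO cells (log2 fold change -4.37 ± 0.48, SE, with an edgeR adjusted p of 2.43e-05). MiR-6944-3p had 0 and 0 counts in Dicer_KO cells, against 12 and 32 in Drosha_KO cells.

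A list of entries reported to derive from small nucleolar RNAs, which guide chemical marks on ribosomal RNA, had 0 of 6 tested entries called higher and 5 lower (all entries, 13.5% and 30.4%), and 0 and 2 with the 6 leading entries out of the totals (24.8% and 13.5%). MiR-1839-5p had 3 and 2 counts in Dicer_KO cells, against 109 and 70 in Drosha_KO cells (log2 fold change -5.21 ± 0.49, SE, with an edgeR adjusted p of 7e-06). MiR-3535, within a small nucleolar RNA at the Ncl gene, had 118 and 120 counts in Dicer_KO cells and 693 and 356 in Drosha_KO cells (log2 fold change -2.18 ± 0.36, SE, with an edgeR adjusted p of 0.00054). That call was lost in 4 of 15 alternatives. With the 6 leading entries out of the totals, which is among them, the log2 fold change was -0.32 and the adjusted p 0.524. MiR-5121, which is not on that list but matches the small nucleolar RNA Snord33 exactly, was chosen after its values were seen. It was called higher, with 268 and 238 counts in Dicer_KO cells and 37 and 18 in Drosha_KO cells. Its log2 fold change was 3.15 ± 0.40 (SE, edgeR adjusted p = 7.04e-05).

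MiR-1983 had 4 and 5 counts in Dicer_KO cells, against 748 and 993 in Drosha_KO cells (log2 fold change -7.63 ± 0.40, SE, with an edgeR adjusted p of 2.12e-07). It belongs to a list of 6 entries reported to match tRNA or rRNA, of which 4 were tested. Of these, miR-6240 and miR-6236 were called higher in Dicer_KO cells, and miR-1983 and miR-6239 lower (all entries, 13.5% and 30.4%). With the 6 leading entries out of the totals, 2 were called higher and 2 lower (24.8% and 13.5%). MiR-6240 and miR-6236 are themselves among the 6 leading entries. MiR-6239 had 2 and 0 counts in Dicer_KO cells and 23 and 29 in Drosha_KO cells.

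MiR-3068 split by arm. Its hairpin lies in an intron of Alkbh1 at chr12:87437679-87437757 on the minus strand, over an exon of the lincRNA Gm29362.
miR-3068 hairpin: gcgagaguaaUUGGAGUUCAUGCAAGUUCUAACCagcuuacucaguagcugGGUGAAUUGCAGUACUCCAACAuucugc
MiR-3068-5p, the first arm in capitals, had 0 and 0 counts in Dicer_KO cells and 435 and 275 in Drosha_KO cells, at least 246-fold lower. MiR-3068-3p, the second arm, was counted 43 and 29 times in Dicer_KO cells, against 143 and 89 times in Drosha_KO cells. The log2 fold change of miR-3068-3p was -1.75 ± 0.37 (SE, edgeR adjusted p = 0.00278), and 0.08 with an adjusted p of 0.921 when the 6 leading entries were out of the totals. Its call was lost in 4 of 15 alternatives, this scaling included. In WT cells the 5p arm made up 6.78% and 3.60% of the counts of the hairpin, against 75.3% and 75.6% in Drosha_KO cells.

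The miR-290 to miR-295 cluster was 3.43% ± 0.271 of counts in Dicer_KO cells, against 20.8% ± 0.408 in Drosha_KO cells and 19.1% in WT cells (SD, n = 2 each). Once the 6 leading entries were set aside it was 13.1% and 14.2% in Dicer_KO cells, against 23.3% and 22.7% in Drosha_KO cells. Its members do not all lie on the same side. Of 14 entries tested, 2 were called higher in Dicer_KO cells, near the 13.5% of all entries, and 7 lower, against 30.4%. With the 6 leading entries out of the totals, 5 were called higher and 6 lower (all entries, 24.8% and 13.5%). The sequences show the AAGUGCU seed that miR-291a-3p, miR-294-3p and miR-295-3p share, and the 5p entries of miR-293 and miR-295, which do not carry it.
miR-291a-3p: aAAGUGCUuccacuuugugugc
miR-294-3p: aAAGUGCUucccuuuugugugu
miR-295-3p: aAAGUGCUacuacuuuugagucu
miR-295-5p: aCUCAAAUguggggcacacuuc
miR-293-5p: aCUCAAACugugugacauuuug

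MiR-291a-3p had 12 and 15 counts in Dicer_KO cells and 1139 and 912 in Drosha_KO cells. The log2 fold change was -6.28 ± 0.35 (SE, edgeR adjusted p = 2.31e-07). MiR-294-3p had 26 and 46 counts in Dicer_KO cells, against 1510 and 1464 in Drosha_KO cells (log2 fold change -5.38 ± 0.39, SE, with an edgeR adjusted p of 1.01e-06). MiR-295-3p, the most abundant of the 3 in WT cells, had 210 and 251 counts in Dicer_KO cells and 1081 and 1050 in Drosha_KO cells. Its log2 fold change of -2.24 ± 0.25 (SE, edgeR adjusted p = 2.67e-05) became -0.36 with an adjusted p of 0.339 when the 6 leading entries were out of the totals. For miR-291a-3p and miR-294-3p, but not for miR-295-3p, the difference kept its call under both scalings.

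Of the 5p entries, miR-290a-5p, miR-291a-5p and miR-292a-5p were called lower. MiR-291a-5p had 108 and 75 counts in Dicer_KO cells and 1557 and 1678 in Drosha_KO cells (log2 fold change -4.21 ± 0.26, SE). MiR-295-5p and miR-293-5p were called higher. MiR-295-5p had 382 and 234 counts in Dicer_KO cells, against 18 and 10 in Drosha_KO cells (log2 fold change 4.39 ± 0.41, SE, with an edgeR adjusted p of 7e-06). MiR-293-5p had 483 and 325 counts in Dicer_KO cells, against 59 and 39 in Drosha_KO cells (log2 fold change 2.98 ± 0.32, SE, with an edgeR adjusted p of 2.38e-05). MiR-290a-5p and miR-293-5p were chosen after their values were seen. Within the cluster, miR-293-5p and miR-295-5p made up 28.1% and 21.3% of the counts in Dicer_KO cells, 0.591% and 0.169% in Drosha_KO cells, and 5.61% and 0.292% in WT cells. These within-cluster shares do not use the library total.

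**Figure D4:**
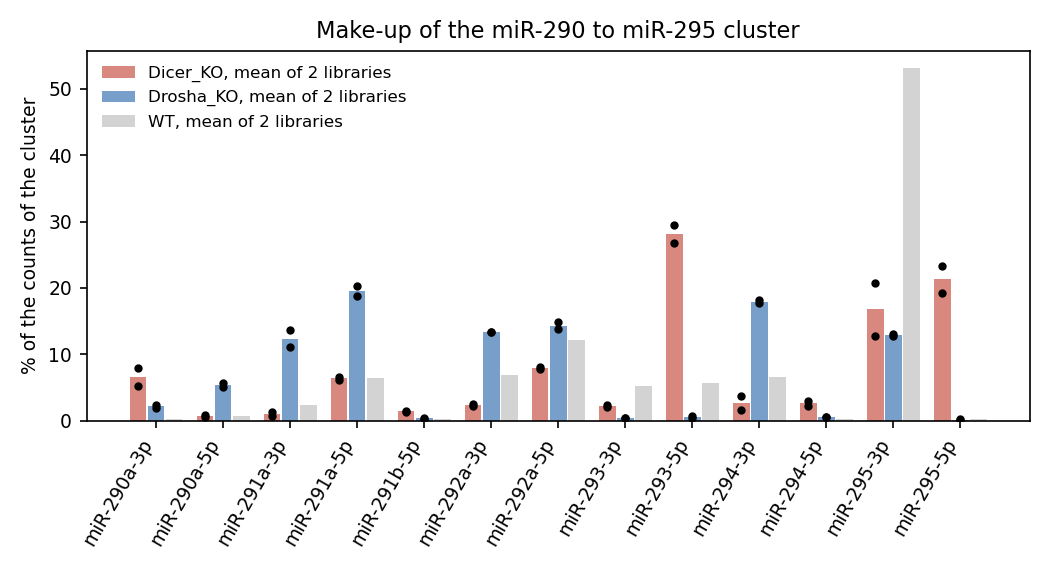
Share (percent, y axis) of each entry (x axis) in the summed counts of the stem-cell cluster from miR-290 to miR-295, with bars for the mean of 2 libraries and black points for single knockout libraries, Dicer_KO left of Drosha_KO and WT. MiR-293-5p and miR-295-5p fill 28.1% and 21.3% of the Dicer_KO cluster counts on average, against 0.591% and 0.169% of the Drosha_KO cluster counts.

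The miR-183, miR-96 and miR-182 cluster, transcribed as 1 unit on chromosome 6 and abundant in stem and sensory cells, was 11.6% and 8.27% of the counts in Dicer_KO cells, against 31.3% and 25.6% in Drosha_KO cells. Of the counts outside the 6 leading entries it was 41.8% and 36.3% in Dicer_KO cells, against 34.7% and 28.4% in Drosha_KO cells, so the direction of the share turned with the denominator. The miRNAs of this cluster are alike in sequence towards the 5′ end, and their ratios differed between the groups.
miR-182-5p: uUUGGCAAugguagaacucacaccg
miR-183-5p: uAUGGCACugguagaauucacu
miR-96-5p: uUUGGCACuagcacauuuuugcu
MiR-182-5p had 3539 and 2137 counts in Dicer_KO cells, against 11846 and 9776 in Drosha_KO cells (log2 fold change -2.0 ± 0.24, SE, with an edgeR adjusted p of 4.82e-05). With the 6 leading entries out of the totals the log2 fold change was -0.17 and the adjusted p 0.6. MiR-183-5p, from the same transcript, had 1573 and 897 counts in Dicer_KO cells and 442 and 482 in Drosha_KO cells (log2 fold change 1.34 ± 0.27, SE, with an edgeR adjusted p of 0.00212). The counts of miR-182-5p were 2.25 and 2.38 times those of miR-183-5p in Dicer_KO cells, 26.8 and 20.3 times in Drosha_KO cells, and 5.78 and 6.11 times in WT cells. This ratio is free of the library total, and the groups did not overlap. MiR-96-5p had 4 and 2 counts in Dicer_KO cells, against 52 and 33 in Drosha_KO cells. The 3p arms of both neighbours were higher, miR-182-3p with 50 and 26 counts in Dicer_KO cells against 5 and 1 in Drosha_KO cells, and miR-183-3p with 63 and 35 counts in Dicer_KO cells against 16 and 10 in Drosha_KO cells.

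The miR-17-92 cluster and its relatives at miR-106a-363 and miR-106b-25 promote proliferation. Together they were 1.01% ± 0.0404 of counts in Dicer_KO cells, 1.36% ± 0.114 in Drosha_KO cells and 18.9% in WT cells (SD, n = 2 each). Of the counts outside the 6 leading entries they were 3.56% and 4.58% in Dicer_KO cells, against 1.41% and 1.59% in Drosha_KO cells, so the direction turned with the denominator. Of 26 entries tested, 4 were called higher in Dicer_KO cells and 4 lower, the first near the 13.5% of all entries and the second under the 30.4%. With the 6 leading entries out of the totals, 9 were called higher and 1 lower (all entries, 24.8% and 13.5%). MiR-18b-5p, at chrX:52742331-52742413 on the minus strand, had 30 and 23 counts in Dicer_KO cells and 0 and 0 in Drosha_KO cells, at least 17-fold higher. MiR-17-5p had 3 and 6 counts in Dicer_KO cells and 98 and 88 in Drosha_KO cells (log2 fold change -4.40 ± 0.42, SE, with an edgeR adjusted p of 7.51e-06). MiR-92a-3p, the most abundant of these, had 288 and 235 counts in Dicer_KO cells, against 247 and 286 in Drosha_KO cells, and the groups overlapped. Its log2 fold change was -0.08 ± 0.21 (SE, edgeR adjusted p = 0.8), and 1.77 with an adjusted p of 0.000147 when the 6 leading entries were out of the totals. MiR-106b-5p had 21 and 13 counts in Dicer_KO cells and 2 and 6 in Drosha_KO cells, and its call (edgeR adjusted p = 0.01) was lost without Dicer_KO replicate 1 (0.0585) or Drosha_KO replicate 1 (0.072).

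In the miR-15/16 family, known as brakes on the cell cycle, 4 of 12 tested entries were called higher in Dicer_KO cells and 2 lower (all entries, 13.5% and 30.4%), and 5 and 0 with the 6 leading entries out of the totals (24.8% and 13.5%). MiR-15b and 1 copy of miR-16 lie side by side in an intron of Smc4 on chromosome 3, and their mature forms share the AGCAGCA seed.
miR-15b-5p: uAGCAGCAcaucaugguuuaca
miR-16-5p: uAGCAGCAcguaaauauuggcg
MiR-15b-5p had 27 and 20 counts in Dicer_KO cells and 0 and 0 in Drosha_KO cells, at least 15.0-fold higher. MiR-16-5p had 118 and 110 counts in Dicer_KO cells, against 282 and 262 in Drosha_KO cells (log2 fold change -1.30 ± 0.27, SE, with an edgeR adjusted p of 0.00235). Its direction turned to 0.56, with an adjusted p of 0.142, when the 6 leading entries were out of the totals. The call on miR-16-5p was lost in 4 of 15 alternatives, this scaling included. MiR-16-1-3p, the other arm of the copy on chromosome 14, had 23 and 21 counts in Dicer_KO cells and 0 and 0 in Drosha_KO cells, at least 14.2-fold higher.

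Of the entries called higher in Dicer_KO cells, miR-21a-5p was the most abundant outside the leading entries and the clusters above. MiR-21a is a widespread miRNA that lies over an exon of Vmp1 at chr11:86584067-86584158 on the minus strand, and its hairpin shows both arms in capitals.
miR-21a hairpin: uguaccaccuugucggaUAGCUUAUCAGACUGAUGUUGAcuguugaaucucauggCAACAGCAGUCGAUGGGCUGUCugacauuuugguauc
On its first arm, miR-21a-5p had 1137 and 537 counts in Dicer_KO cells, against 92 and 51 in Drosha_KO cells (log2 fold change 3.46 ± 0.40, SE, with an edgeR adjusted p of 3.75e-05). MiR-21a-3p was at 4732 and 2295 CPM in Dicer_KO cells and at 50.6 and 49.6 CPM, or 2 and 2 counts, in Drosha_KO cells (log2 fold change 6.13 ± 0.53, SE, with an edgeR adjusted p of 4.64e-06). Both arms were thus higher, in each Dicer_KO library against each Drosha_KO library. MiR-135b-3p, from an intron of Lemd1 on chromosome 1, had 107 and 65 counts in Dicer_KO cells and 3 and 1 in Drosha_KO cells. MiR-135b-5p had 63 and 41 counts in Dicer_KO cells and 3 and 0 in Drosha_KO cells, a share 33.5 times as large with a 95% counting interval of 11.1 to 165. MiR-532-5p, with 57 and 47 counts in Dicer_KO cells against 1 and 1 in Drosha_KO cells, had a share 50.2 times as large (13.5 to 420). MiR-196a-5p, which is encoded within the Hox clusters, had 12 and 21 counts in Dicer_KO cells and 0 and 0 in Drosha_KO cells, at least 11-fold higher.

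Several miRNAs made by the usual route through both enzymes were lower in Dicer_KO cells than in Drosha_KO cells under either scaling. MiR-24-3p and miR-146b-5p are shown because they stood next to the mirtrons in the size of the difference, and both were chosen after their values were seen.
miR-24-3p: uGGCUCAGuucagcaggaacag
miR-146b-5p: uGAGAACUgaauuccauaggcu
MiR-24-3p had 2 and 4 counts in Dicer_KO cells, against 726 and 596 in Drosha_KO cells (log2 fold change -7.82 ± 0.47, SE, with an edgeR adjusted p of 2.92e-07). MiR-146b-5p, which dampens inflammatory signalling, had 1 and 0 counts in Dicer_KO cells and 225 and 207 in Drosha_KO cells, a share 0.00223 times as large with a 95% counting interval of 5.64e-05 to 0.0125. In WT cells miR-24-3p averaged 453 CPM and miR-146b-5p 321 CPM. MiR-26a-5p had 69 and 57 counts in Dicer_KO cells and 1386 and 1122 in Drosha_KO cells (log2 fold change -4.37 ± 0.27, SE, with an edgeR adjusted p of 2.92e-07).

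MiR-101b-3p had 0 and 0 counts in Dicer_KO cells, against 63 and 59 in Drosha_KO cells, at least 42.2-fold lower. MiR-29a-3p, which represses collagen genes, had 0 and 0 counts in Dicer_KO cells, against 37 and 46 in Drosha_KO cells, at least 28.6-fold lower. MiR-222-3p had 0 and 0 counts in Dicer_KO cells, against 34 and 41 in Drosha_KO cells, at least 25.9-fold lower. The let-7 family, which builds up as stem cells differentiate, was at low counts in both groups, with 0 of 10 tested entries called higher in Dicer_KO cells and 4 lower, or 0 and 1 with the 6 leading entries out of the totals. The lower calls were near the shares over all entries, 30.4% and 13.5%. Let-7g-5p had 3 and 0 counts in Dicer_KO cells and 95 and 71 in Drosha_KO cells, a share 0.0174 times as large (95% counting interval 0.00356 to 0.0519). The call on let-7f-5p, at 398 and 160.1 CPM in Dicer_KO cells against 3240 and 3027 CPM in Drosha_KO cells, was lost with the 6 leading entries out of the totals (edgeR adjusted p = 0.114) and without Dicer_KO replicate 2 (edgeR adjusted p = 0.0667).

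The imprinted Dlk1-Dio3 cluster on chromosome 12 set the 2 Drosha_KO libraries apart from each other. Its entries summed to 256 and 439 counts in the Dicer_KO libraries, against 6 and 4392 counts in the Drosha_KO libraries, that is 0.566% and 1.17% against 0.0152% and 10.9% of the counts. In WT cells the cluster was 18.96% ± 0.0102 of counts (SD, n = 2). MiR-127-3p alone had 131 and 190 counts in Dicer_KO cells and 4 and 3220 in Drosha_KO cells, and its log2 fold change of -3.33 ± 1.49 (SE) was not called (edgeR adjusted p = 0.0943). Without Drosha_KO replicate 2 the log2 fold change was 5.29 (edgeR adjusted p = 2.4e-07), and without Drosha_KO replicate 1 it was -4.33 (edgeR adjusted p = 4.77e-09). MiR-410-3p had 11 and 14 counts in Dicer_KO cells and 0 and 337 in Drosha_KO cells, and its call (edgeR adjusted p = 0.0479) was lost in 11 of 15 alternatives and turned without Drosha_KO replicate 2, where no count is left in Drosha_KO. MiR-541-5p, at 464 and 1468 CPM in Dicer_KO cells against 25.3 and 3300 CPM in Drosha_KO cells, was not called. Of 61 entries of the cluster tested, 1 was called higher and 5 lower, both under the 13.5% and 30.4% of all entries, or 9 and 0 with the 6 leading entries out of the totals (all entries, 24.8% and 13.5%). No direction is drawn for the cluster.

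The Sfmbt2 cluster on chromosome 2 holds many near-identical copies, so counts can be shared between its entries, and several entries had counts that are multiples of 1 number in every library. With that limit, 5 of 44 tested entries were called higher in Dicer_KO cells and 8 lower, the first near the 13.5% of all entries and the second under the 30.4%, or 8 and 2 with the 6 leading entries out of the totals (all entries, 24.8% and 13.5%). MiR-669a-5p had 300 and 156 counts in Dicer_KO cells and 24 and 36 in Drosha_KO cells, while miR-669a-3p had 0 and 0 counts in Dicer_KO cells and 33 and 33 in Drosha_KO cells. The share of the whole cluster was 1.17% ± 0.225 in Dicer_KO cells and 1.01% ± 0.312 in Drosha_KO cells (SD, n = 2 each), and the libraries overlapped. Of the counts outside the 6 leading entries it was 4.78% and 4.42% in Dicer_KO cells, against 0.875% and 1.37% in Drosha_KO cells, with no overlap.

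The balance between the arms of a hairpin does not depend on the library total, since both arms come from the same library. It was compared as the log2 ratio of 5p to 3p counts in 23 hairpins with at least 20 counts over both arms in each of the 4 libraries, with 0.5 added to each count. The ratio differed between Dicer_KO and Drosha_KO cells in 19 of the 23 hairpins (82.6%, limma, adjusted p under 0.05), 9 towards the 5p arm in Dicer_KO cells and 10 towards the 3p arm. MiR-183, miR-27b, miR-30d and miR-30e were not called. Among the called hairpins, the counts of miR-669a were multiples of 12 (5p) and 11 (3p), and those of miR-467a multiples of 10 on both arms. These counts may stand for fewer reads, so both hairpins may have met the limit of 20 counts on fewer reads than that.

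MiR-295 moved farthest among the stem-cell hairpins. The RefSeq hairpin, at chr7:3220773-3220841 on the plus strand, has both arms in capitals.
miR-295 hairpin: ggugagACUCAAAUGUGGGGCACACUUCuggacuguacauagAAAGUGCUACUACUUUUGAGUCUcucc
The 5p arm was 64.5% and 48.2% of the counts of miR-295 in Dicer_KO cells, against 1.64% and 0.943% in Drosha_KO cells and 0.577% and 0.519% in WT cells. The difference in log2 5p over 3p was 6.64 ± 0.42 (SE). In miR-294 the 5p share was 65.3% and 37.0% in Dicer_KO cells, against 2.83% and 2.85% in Drosha_KO cells (difference 5.15 ± 0.50, SE). MiR-290a went the other way, with a 5p share of 9.15% and 8.70% in Dicer_KO cells and 72.8% and 70.6% in Drosha_KO cells (difference -4.61 ± 0.42, SE). In WT cells the 5p share of miR-290a was 81.1% and 69.4%.

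Outside the cluster, the 5p share of miR-148a was 41.2% and 27.6% in Dicer_KO cells and 4.26% and 4.21% in Drosha_KO cells. For miR-93 it was 73.5% and 72.0% in Dicer_KO cells, against 96.7% and 99.1% in Drosha_KO cells. MiR-21a had 84.2% and 86.2% of its counts on the 5p arm in Dicer_KO cells and 97.9% and 96.2% in Drosha_KO cells. MiR-182 had 98.6% and 98.8% in Dicer_KO cells, against 99.96% and 99.99% in Drosha_KO cells. The arm that is the minor one in WT cells had a larger share in Dicer_KO than in Drosha_KO cells in 17 of the 23 hairpins, and in 13 of the 19 that were called. Its median share was 8.19% in Dicer_KO cells, 2.84% in Drosha_KO cells and 4.18% in WT cells. The call on miR-205 was lost without Dicer_KO replicate 2, and that on miR-677 without Dicer_KO replicate 2 or without either Drosha_KO library. The call on miR-22 rests on 1 and 0 counts of its 5p arm in Dicer_KO cells, against 0 and 0 in Drosha_KO cells, and so on the 0.5 added to each count.

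**Figure D5:**
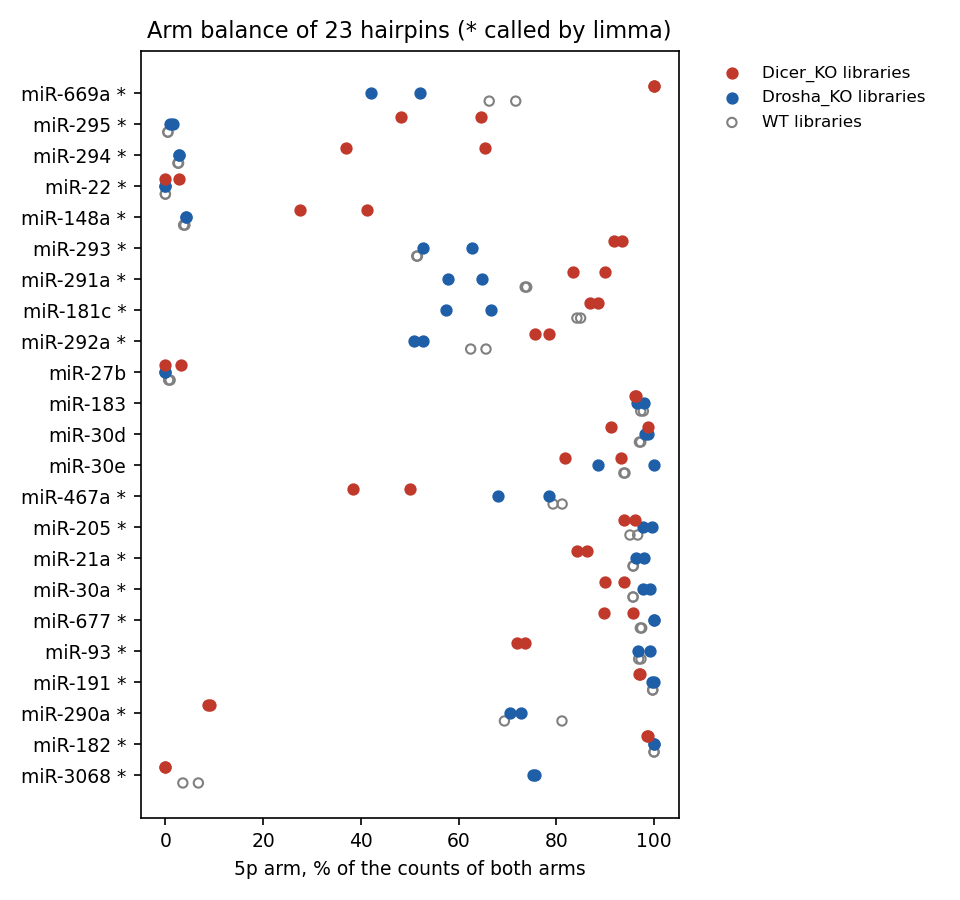
Share of the 5p arm (percent of the counts of a hairpin, x axis) in 23 hairpins (y axis, a star marks a limma call), 1 point per library, with Dicer_KO above Drosha_KO and WT in each row. MiR-295 lies at 64.5% and 48.2% in Dicer_KO libraries, against 1.64% and 0.943% in Drosha_KO libraries.

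Presence and absence were compared next. At least 1 count over the 2 libraries was found for 433 entries in Dicer_KO cells and 532 in Drosha_KO cells, and 281 entries were shared, 64.9% of the Dicer_KO set and 52.8% of the Drosha_KO set. Single libraries showed 347 and 344 entries in Dicer_KO cells, against 420 and 430 in Drosha_KO cells. Thinned to 37476 counts each, the expected numbers were 327 and 344 in Dicer_KO cells and 413 and 421 in Drosha_KO cells. When the 6 leading entries were set aside and the rest thinned to 8529 counts each, the order turned, with 301 and 338 entries in Dicer_KO libraries and 251 and 266 in Drosha_KO libraries.

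A rule chosen after seeing the data required at least 10 counts in both libraries of 1 group and 0 in both of the other. By it, 5 entries were found in Dicer_KO cells alone and 16 in Drosha_KO cells alone. Outside the leading entries the Dicer_KO libraries held 12525 and 8529 counts, against 35640 and 36325 in the Drosha_KO libraries. The rule was thus easier to meet for Drosha_KO cells, and it was not repeated at equal depth. No direction is drawn from the 5 and the 16. The 5 were miR-18b-5p, miR-15b-5p, miR-16-1-3p, miR-196a-5p and miR-181a-2-3p, the last with 11 and 10 counts in Dicer_KO cells and 0 and 0 in Drosha_KO cells. MiR-3068-5p led the 16 with its 435 and 275 counts in Drosha_KO cells, followed by the mirtron entries miR-702-3p and miR-877-3p and by miR-101b-3p. The others were miR-8114, miR-29a-3p, miR-222-3p, miR-1843a-5p, miR-3102-3p, miR-669a-3p, miR-6944-3p, miR-1843b-5p, miR-344-3p, miR-3102-3p.2-3p, miR-200c-3p and miR-3082-3p. The counts of miR-669a-3p were multiples of 11 and those of miR-344-3p multiples of 2 in every library, so they may stand for fewer reads. MiR-1843a-5p, with 0 and 0 counts in Dicer_KO cells against 48 and 21 in Drosha_KO cells, matches the small Cajal body RNA Scarna3b exactly, and miR-8114, with 0 and 0 counts in Dicer_KO cells against 44 and 42 in Drosha_KO cells, matches a transcript of Glul.

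Markers of other cells were checked by whole lists. Of 27 fibroblast or feeder entries 13 had no count in any of the 4 libraries, among them miR-100-5p, miR-99a-5p, miR-199a-5p, miR-199b-5p and both arms of miR-214. The list summed to 3.29% and 1.94% of the counts in Dicer_KO cells and 1.44% and 1.71% in Drosha_KO cells. When the leading entries were set aside it was 11.9% and 8.54% in Dicer_KO cells, against 1.59% and 1.90% in Drosha_KO cells. Of its 12 tested entries 3 were called higher in Dicer_KO cells, among them both arms of miR-21a, and 2 lower (all entries, 13.5% and 30.4%), or 5 and 2 with the 6 leading entries out of the totals (24.8% and 13.5%). The part of such cells in the miR-21a result was not tested. Of 13 blood entries 6 had no count, including miR-223-3p and miR-451a, and the list summed to 0.0686% and 0.0667% in Dicer_KO cells, against 0.569% and 0.360% in Drosha_KO cells. Neural entries summed to 0.0752% and 0.0374% in Dicer_KO cells and to 0.177% and 0.325% in Drosha_KO cells, and 6 of 17 had no count. Of the counts outside the 6 leading entries they were 0.271% and 0.164% in Dicer_KO cells, against 0.196% and 0.361% in Drosha_KO cells, and the groups overlapped. Of 13 muscle entries 12 had no count, and of 11 liver, gut and endoderm entries 8 had none, miR-122-5p among them. The 1 muscle entry tested had 6 and 1 counts in Dicer_KO cells, against 0 and 0 in Drosha_KO cells, and was called higher. Of 3 liver, gut and endoderm entries tested, 1 was called higher and 2 lower (all entries, 13.5% and 30.4%). With the 6 leading entries out of the totals these were 1 and 0 (24.8% and 13.5%). MiR-451a, which is known to mature without Dicer through Ago2, had 0 counts in all 4 libraries.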

How the data were processed

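Small RNA libraries of E14 cells were compared from 1 deposited table of whole-number read counts per mature miRNA entry. The authors' counts come from Bowtie and mm10, per the submitters' processing notes; how reads with several matches were shared is not given in the sources used here. Counts were tested with edgeR 4.0.16 (R 4.3.3), quasi-likelihood, on all 10 libraries and 5 groups with column totals as library sizes, filterByExpr, 5 residual degrees of freedom and Benjamini-Hochberg adjustment. Arm ratios were tested with limma 3.58.1, and DESeq2 1.42.0 was an alternative. Intervals cover counting error at 95%. At the depths here, a count of 0 allows up to 3 counts, 66.3 to 80.1 CPM in a library. Sequences are from RefSeq (GRCm38.p6), which held 1623 of the 1907 entries, and overlaps from GENCODE M21. The rule for named entries took the highest and lowest fold changes, the most abundant entries and the most abundant members of each list (114 entries, of which a subset is printed). The members, lists and rules were chosen with earlier results of these data known. The scripts were tested on simulated data. The alternatives were other scalings, filters, tools and left-out libraries.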

Additional observations from a re-analysis of the deposited data

How the results depend on the processing

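Scaling decided the counts of calls. Main totals gave 65 entries higher and 146 lower in Dicer_KO than in Drosha_KO cells. DESeq2 size factors in edgeR gave 99 and 90, DESeq2 with its own size factors 120 and 93, totals without the fragment-like list 95 and 90, totals without the 6 leading entries (added after seeing the data, counted over the other 475 entries) 118 and 64, and a fit on only the 4 libraries, which tested 142 entries, 34 and 78. Higher calls were 30.8% of all calls with column totals, 36.4% with TMM factors and 64.8% without the 6 leading entries. Leaving out each library in turn gave 47 to 62 higher calls, and 103 lower calls without Dicer_KO replicate 1 was the smallest such number. The replicate numbers do not pair the libraries by the labels; deviations of same-numbered Dicer_KO and Drosha_KO libraries correlated at 0.332, and a replicate block gave 62 higher and 137 lower calls and 19 arm calls.

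Detection moved with its definition. At 3 counts over a group, 253 entries in Dicer_KO, 340 in Drosha_KO and 168 in both were detected, at 10 counts 129, 190 and 88, and with a count in both libraries 258, 318 and 159. The mean difference per library, Dicer_KO minus Drosha_KO, turned from -79.5 to 60.9 entries when the counts outside the 6 leading entries were thinned. With 50 summed counts required, 12 hairpins could be tested and 11 were called.

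Directions turned as follows, and the cause was not tested beyond the change of denominator. The log2 fold change of miR-92a-3p became 0.27 with TMM factors, 1.19 with DESeq2 size factors in either tool, 1.15 without the fragment-like list, 1.77 without the 6 leading entries and, over left-out libraries, -0.17 to 0.016. Without the 6 leading entries miR-3068-3p became 0.081 and miR-16-5p 0.56. MiR-541-5p became 0.58 with DESeq2 size factors in edgeR, 0.62 in DESeq2, 0.46 without the fragment-like list, and 1.11 without the 6 leading entries. Over left-out libraries miR-541-5p ran between -1.84 and 5.22, miR-127-3p between -4.33 and 5.29 and miR-410-3p between -4.78 and 10.59, each highest without Drosha_KO replicate 2. List shares in percentage points turned for the miR-17-92 relatives (1.10 without the fragment-like list, 2.57 without the 6 leading entries), the miR-15/16 family (0.366, 1.03) and the miR-183, miR-96 and miR-182 cluster (7.52 without the 6 leading entries). Over left-out libraries the shares ran between -10.03 and 0.854 for Dlk1-Dio3, between -0.065 and 0.376 for Sfmbt2 (3.48 without the 6 leading entries, 1.81 without the fragment-like list) and between -0.0049 and 0.0219 for the liver, gut and endoderm markers. The uncalled arm balances ran between -0.033 and 1.40 for miR-27b, between -2.60 and 0.029 for miR-30d and between -3.46 and 0.023 for miR-30e. Over results for single entries, lists and hairpins, 1135 alternative values kept direction and call, 35 lost a call, 7 gained one and 18 shares moved by more than the spread between replicates. Depth limits every entry at under 3 counts in a group, and 1 Dicer_KO library holds 8529 counts outside the 6 leading entries.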

Other observations

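Summed by seed rather than by entry, the AAGUGCU seed, led by miR-294-3p, miR-295-3p and miR-291a-3p, took 0.548% and 0.833% of the counts in Dicer_KO cells, against 9.44% and 8.50% in Drosha_KO cells. Of the counts outside the 6 leading entries it took 1.98% and 3.66% in Dicer_KO cells, against 10.5% and 9.43% in Drosha_KO cells. The UUGGCAA seed of miR-182-5p took 7.83% and 5.70% in Dicer_KO cells and 30.0% and 24.3% in Drosha_KO cells. Of the counts outside the 6 leading entries it took 28.3% and 25.1% in Dicer_KO cells and 33.2% and 26.9% in Drosha_KO cells, and the groups overlapped. The count-weighted GC content of the matched mature sequences was 57.1% and 62.9% in Dicer_KO cells, against 48.8% and 51.1% in Drosha_KO cells. Without the 6 leading entries it was 46.3% and 46.9% in Dicer_KO cells and 48.2% and 49.2% in Drosha_KO cells. The count-weighted length was 21.8 and 22.1 bases in Dicer_KO cells, against 23.1 and 22.9 bases in Drosha_KO cells. Without the 6 leading entries it was 22.96 and 22.87 bases in Dicer_KO cells and 23.2 and 22.95 bases in Drosha_KO cells, and the groups overlapped. These lengths are of the reference sequences, not of reads, and the matched entries hold 82.5% and 83.0% of Dicer_KO counts and 86.6% and 88.1% of Drosha_KO counts.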
